A study of Mus musculus with 12 samples.

Results

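The beta-globin locus of the mouse, with its upstream control region, was described through every peak that overlapped chromosome 7 from 110930001 to 111060000 (build mm9) in 11 deposited peak lists. This window of 130 kb met 124 of the 353805 peaks in the lists. Libraries contributed between 5 peaks (H3K4me3 replicate 1) and 14 peaks (H3K27ac replicate 2 and ATAC replicate 2). All samples came from C57BL/6 embryos at embryonic day 14.5. ChIP-seq of whole fetal liver was made for the histone marks H3K4me1 (3 libraries), H3K4me2 (2), H3K4me3 (2) and H3K27ac (2). Proerythroblasts, early red cell precursors, gave 2 ATAC-seq libraries, an assay in which a transposase cuts open chromatin. The peak names in the H3K4me1 lists carry the tag Mel, which is also the name of an erythroleukaemia line, so that the source of H3K4me1 as fetal liver rests on the sample labels. An input DNA sample entered no comparison. No genotype or treatment distinguished the groups. The labels do not say whether replicates came from separate embryos, pools or litters, so differences between libraries may be technical. The p-values refer only to these libraries. Whole liver is a mixture, in which a mark that is strong in few cells and one that is weak in many cannot be told apart.

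Beta-globin is the beta-type chain of haemoglobin. The mouse genes stand in a row that is used in developmental order: Hbb-y and Hbb-bh1 are embryonic genes of the first, yolk-sac-derived red cells, and the adult genes serve the red cells that are made in the fetal liver and later in the bone marrow. Upstream of Hbb-y lies the locus control region, a group of DNase-hypersensitive enhancer sites bound by erythroid factors such as GATA1, TAL1 and KLF1, which contacts the active globin promoters by looping and is needed for high expression. H3K4me3 sits mainly at active promoters, while H3K4me1 marks enhancers and the flanks of promoters. H3K4me2 occurs at either, and H3K27ac is found where enhancers or promoters are active. The title of the series concerns hyperacetylated domains, and the beta-globin locus is a long-studied example of one.

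In the RefSeq gene table, which is on GRCm38, the row runs from low to high coordinate as Hbb-bt, Hbb-bs, the pseudogenes Gm15115 and Hbb-bh3, then Hbb-bh2, Hbb-bh1 and Hbb-y. Hbb-bt, Hbb-bs, Hbb-bh2 and Hbb-y are on the minus strand, so upstream means toward higher coordinates. Olfactory receptor genes flank the row on both sides, with Olfr67 next to Hbb-bt and Olfr66 next to Hbb-y. Hbb-b1 and Hbb-b2 are the names of the adult pair in another haplotype, and the table does not list them in this row. C57BL/6 mice carry Hbb-bs and Hbb-bt, which are often labelled with the older names. No mm9 gene annotation was used, so no gene was placed on a peak. Instead the window was divided at 111005000, 75 kb from its start. That boundary rests on general knowledge of the locus, by which all the globin genes lie below it and the control region above it. The lower 75 kb are called the gene side and the upper 55 kb the control side, which also holds sequence beyond the control region.

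The promoters are shown because they are the globin sequences on which the control region acts. RefSeq (GRCm38.p6) gave the 250 bases before the start of Hbb-bs, Hbb-bt, Hbb-bh2 and Hbb-y. The set of promoter sequences used here had no entry for Hbb-b1, Hbb-b2 or Hbb-bh1. Capitals mark matches on either strand to AGATAA and TGATAA (forms of the GATA motif), CCAAT (the CCAAT box), CACCC (the core of the KLF1-type box) and ATAAAA (a form of the TATA box). The sequences read 5′ to 3′ on the genes' own strand:
Hbb-bs: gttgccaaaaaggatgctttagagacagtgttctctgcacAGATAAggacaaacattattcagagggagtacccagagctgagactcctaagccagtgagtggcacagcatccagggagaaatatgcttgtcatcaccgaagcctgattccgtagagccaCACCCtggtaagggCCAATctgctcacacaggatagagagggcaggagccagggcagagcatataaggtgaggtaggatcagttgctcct
Hbb-bt: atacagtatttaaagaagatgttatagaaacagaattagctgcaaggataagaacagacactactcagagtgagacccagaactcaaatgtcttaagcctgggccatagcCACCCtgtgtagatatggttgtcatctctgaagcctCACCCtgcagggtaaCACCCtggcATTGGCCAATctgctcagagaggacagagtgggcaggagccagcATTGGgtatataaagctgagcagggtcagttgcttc
Hbb-bh2: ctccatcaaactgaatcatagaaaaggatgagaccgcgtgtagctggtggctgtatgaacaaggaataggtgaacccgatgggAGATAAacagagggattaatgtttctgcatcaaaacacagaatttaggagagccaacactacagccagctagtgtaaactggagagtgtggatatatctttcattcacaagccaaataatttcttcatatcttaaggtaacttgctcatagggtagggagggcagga
Hbb-y: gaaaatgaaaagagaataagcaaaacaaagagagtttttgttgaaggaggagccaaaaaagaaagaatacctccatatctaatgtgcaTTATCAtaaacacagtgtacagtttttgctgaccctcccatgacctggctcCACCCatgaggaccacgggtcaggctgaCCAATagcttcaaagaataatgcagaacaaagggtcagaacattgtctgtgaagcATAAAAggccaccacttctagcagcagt

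CACCC followed by CCAAT was common to the promoters of Hbb-bs, Hbb-bt and Hbb-y and was not found in that of Hbb-bh2. CACCC began 90 bases before the start of Hbb-bs and 111 before that of Hbb-y, and at 140, 104 and 89 bases before the start of Hbb-bt. CCAAT on the gene's strand began at 76 bases in Hbb-bs, 75 in Hbb-bt and 83 in Hbb-y. Hbb-bt had a further CCAAT on the other strand at bases 80 to 76, which adjoins the one at 75, and another at 36 to 32. AGATAA was in Hbb-bs and Hbb-bh2, TGATAA in Hbb-y and ATAAAA in Hbb-y. Only these exact strings were searched. A promoter without a match may hold other forms of the GATA motif or the TATA box. These motifs are short: of 32851 RefSeq promoter stretches of 250 bases, 52.0% held CACCC, 33.8% CCAAT, 17.0% ATAAAA, 9.99% AGATAA and 7.94% TGATAA. The promoters of the adult pair Hbb-bs and Hbb-bt were 69.3% identical over the alignment, with a longest shared run of 14 bases, against 50.7% for either with Hbb-y. How reads that match more than 1 globin gene were handled is not given in the sources used here.

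Peaks filled far more of the window than of most of the genome. A peak was present in every library of the group in 13 of the 13 bins of 10 kb for H3K4me1 (genome background 12.1%), 10 for H3K4me2 (13.8%), 7 for H3K4me3 (5.77%), 12 for H3K27ac (7.53%) and 8 for ATAC (5.62%). By bases, H3K4me1 peaks covered 72.2% ± 0.789 of the window (SD, n = 3), H3K27ac 62.6% ± 1.65 (n = 2), H3K4me2 52.6% ± 8.15 (n = 2), H3K4me3 18.4% ± 5.53 (n = 2) and ATAC 4.74% ± 1.16 (n = 2). Of 20294 other windows of the same length, 8 had at least as much H3K4me1 cover, 6 as much H3K27ac, 5 as much H3K4me2, 17 as much H3K4me3 and 39 as much ATAC cover. The median window had 0.00% to 0.168% cover in these groups. These ranks describe the lists and were not tested. Some rest on 1 library: the number of windows was 4 for H3K4me1 without replicate 1, 7 and 29 for H3K4me3 without replicates 1 and 2, and 3 and 10 for H3K27ac without replicates 1 and 2. With −log10 q of at least 5 it was 55 for H3K4me3 and 1 for H3K27ac, and with windows tiled at a shift it was 13 for H3K27ac.

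**Figure D1:**
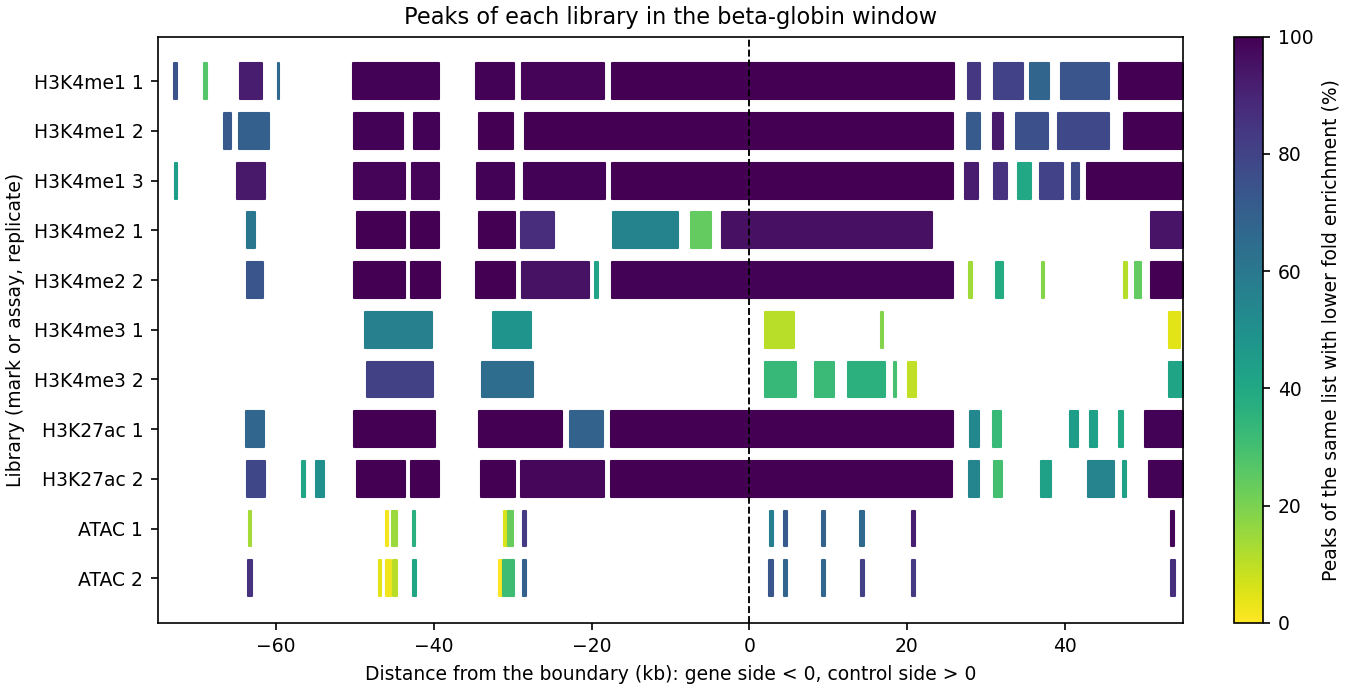
Peaks of each of the 11 libraries along the window, by distance in kb from the boundary between gene side and control side; colour gives the percentage of peaks in the same list with lower fold enrichment. A peak of 26.57 to 54.31 kb lay across the boundary in the 7 H3K4me1, H3K4me2 and H3K27ac libraries, while H3K4me3 and ATAC peaks stood in separate groups on either side.

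**Figure D2:**
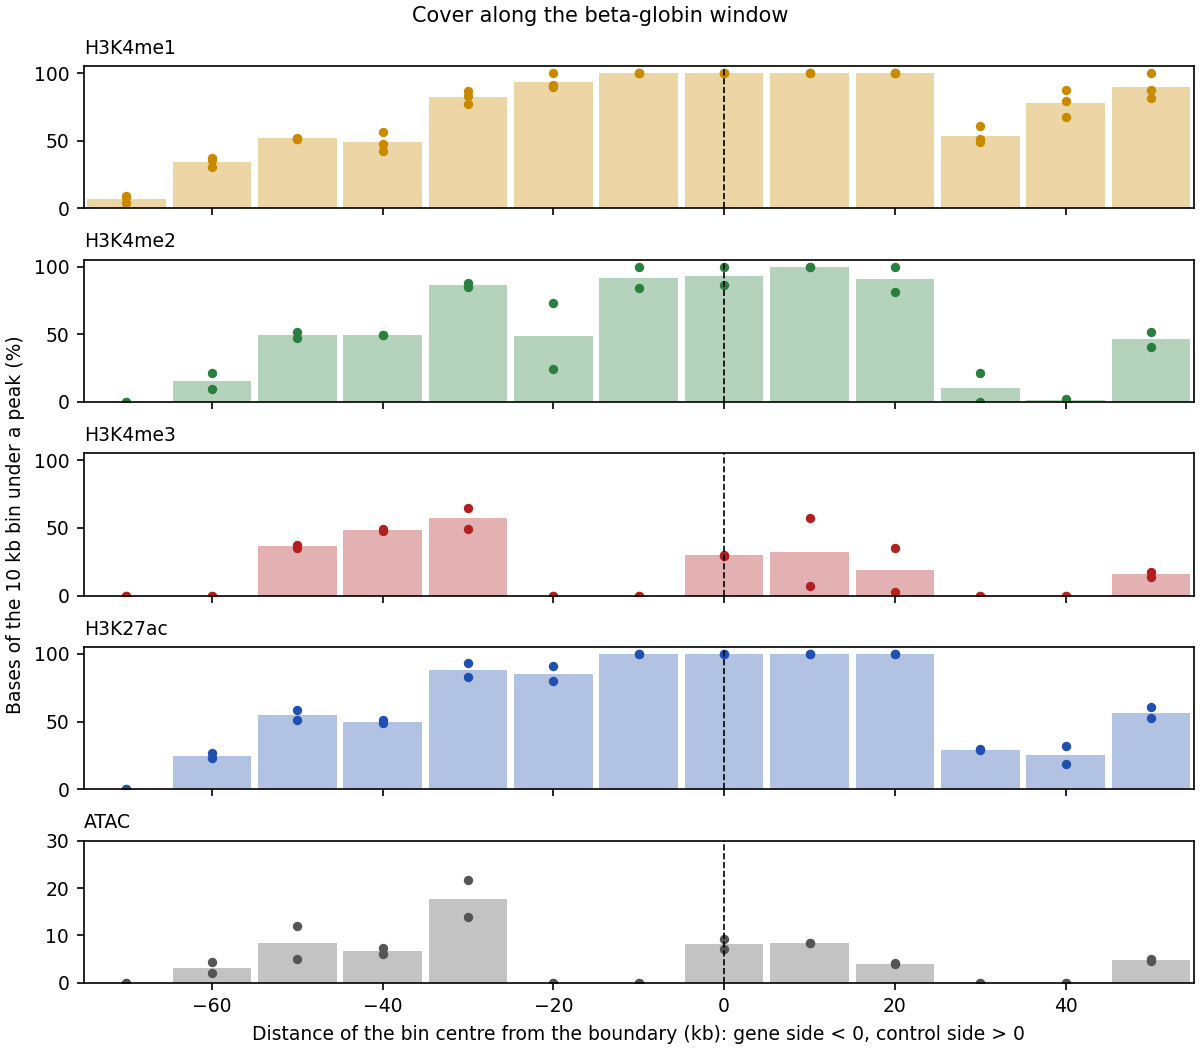
Percentage of each 10 kb bin under a peak; dots are libraries and bars their means, with a separate vertical scale for ATAC. H3K4me3 and ATAC had no peak in the bins centred 20 and 10 kb below the boundary, where H3K4me1 covered 89.8% to 100% and H3K27ac 79.7% to 100% in every library.

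An acetylated domain with nearly the same ends in several libraries joined the gene side to the control side. Both H3K27ac lists had their peak of highest fold enrichment there, at 15.1 in replicate 1 (rank 1 of 28387 peaks) and 11.7 in replicate 2 (rank 1 of 23733). Of the 7 libraries with a peak across the boundary, 5 began it between 110987488 and 110987621, a range of 133 bp that spans H3K4me1, H3K4me2 and H3K27ac. All but H3K4me2 replicate 1 ended it between 111030698 and 111030959. The exceptions were H3K4me1 replicate 2, whose peak began at 110976576 and was 54.31 kb wide, and H3K4me2 replicate 1, whose peak ran from 111001585 to 111028155. H3K4me3 had no peak across the boundary.

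The domain was among the strongest H3K4me1 peaks too. Its H3K4me1 fold enrichment was 7.51 in replicate 1 (rank 5 of 52387), 5.47 in replicate 2 (rank 9 of 42323) and 6.09 in replicate 3 (rank 8 of 44542). In H3K4me2 the same peak was further down the list, at 8.24 (rank 1712 of 42334) and 7.69 (rank 310 of 41765). A broad peak has 1 fold enrichment for its whole length, so values within this domain do not tell its gene-side part from its control-side part.

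H3K4me3 had its higher fold enrichments on the gene side, while its extent by side differed between libraries. Its 2 gene-side peaks had fold enrichments of 8.11 and 6.76 in replicate 1 and 12.7 and 9.62 in replicate 2. The control-side peaks reached 3.53 at most in replicate 1 (3 peaks) and 5.00 in replicate 2 (6 peaks). Gene-side and control-side peaks did not overlap in fold enrichment in either library. Weighted by bases, the mean was 2.45 times higher on the gene side in replicate 1 and 2.67 times in replicate 2, a log2 ratio of 1.35 ± 0.0906 (SD, n = 2). The direction was the same in 2 of 2 libraries, and the exact sign-flip test, two-sided with sides paired within a library, gave p = 0.5, the smallest that 2 libraries allow. With 2 libraries this p-value depends only on whether both have the same direction, not on the spread between them.

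The gene-side H3K4me3 peaks were wide rather than strong for their lists. The first ran from 110956235 to 110964799 in replicate 1 and from 110956487 to 110964947 in replicate 2. Its width ranked 43 of 14027 and 89 of 16886. Its fold enrichment exceeded that of 57.0% and 80.5% of peaks. The second ran from 110972445 to 110977376 and from 110971087 to 110977567, with a fold enrichment above 48.2% and 64.7% of peaks.

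On the control side the H3K4me3 libraries differed. Replicate 1 had peaks at 111007019 to 111010707, 111021749 to 111021983 and 111058216 to 111059603, and replicate 2 had these places and 3 more stretches between 111013395 and 111026214. Cover of the control side was 9.66% in replicate 1 and 25.5% in replicate 2, against 18.0% and 19.9% of the gene side. The Jaccard index of the pair (bases in both divided by bases in either) was 0.872 on the gene side and 0.372 on the control side. The gene side had more cover in replicate 1 and less in replicate 2, and the mean difference was 1.38 ± 9.84 percentage points (SD, n = 2, exact sign-flip p = 1). With −log10 q of at least 5, replicate 1 had no control-side H3K4me3 peak.

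The share of covered bases on the gene side was compared between H3K4me3 and the other ChIP libraries. It was 71.8% and 51.6% in the H3K4me3 libraries and 49.7% to 57.1% in the 7 others, so the groups overlapped. The difference of 8.38 points had p = 0.139 in a two-sided exact permutation test over 9 libraries, whose smallest p is 0.0278. The 7 others were replicates of different marks, with mean shares of 49.8% (H3K4me1), 56.2% (H3K4me2) and 55.6% (H3K27ac). The test shuffled them as a single group, so its p-value mixes differences between marks with those between replicates. Over the 12 tests of sides and shares, Benjamini-Hochberg adjusted p-values lay between 0.857 and 1.0, so none passed 0.05. The difference turned to −1.71 points without H3K4me3 replicate 1, rose to 18.5 without replicate 2, and was 28.7 (unadjusted p = 0.0278, exact permutation) with −log10 q of at least 5. It also followed the boundary, from −6.28 points over the same 40 kb either side to 20.0 with the midpoint as boundary.

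**Figure D3:**
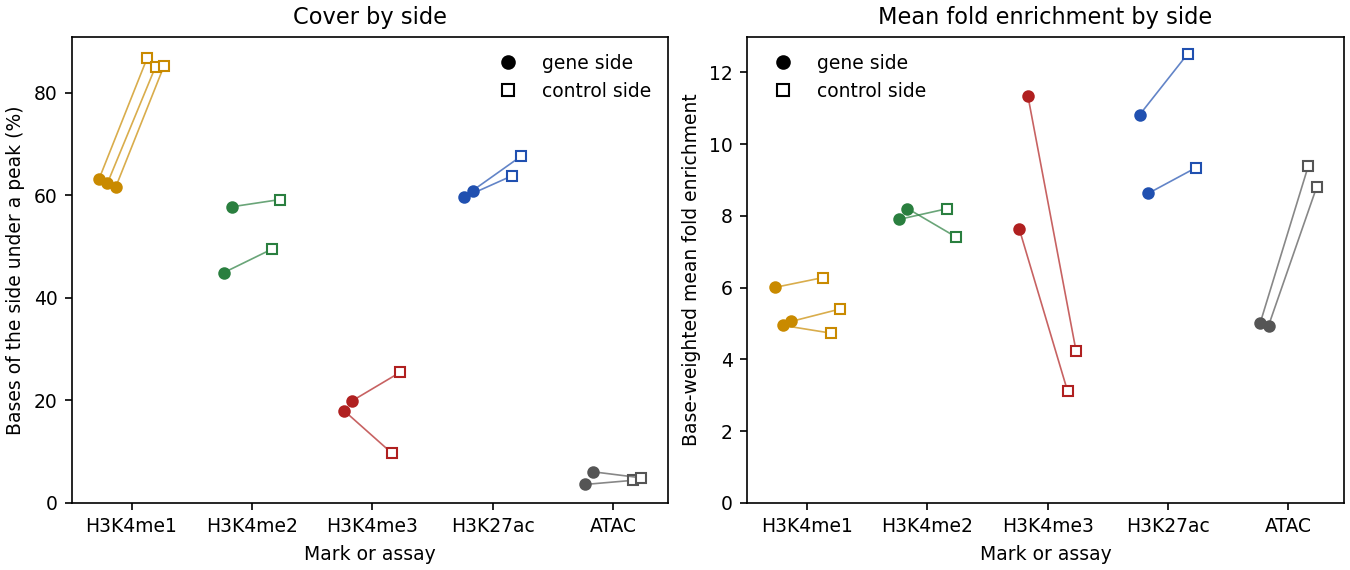
Left, percentage of the bases of each side under a peak; right, base-weighted mean fold enrichment of each side. Lines join the sides of 1 library. Mean fold enrichment was higher on the gene side in both H3K4me3 libraries and higher on the control side in both ATAC libraries.

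H3K4me2 was strongest on the gene side as well. The peak of highest fold enrichment in either H3K4me2 list lay from 110962108 to 110965705 in replicate 1 (13.1) and from 110962121 to 110965737 in replicate 2 (11.8). Its neighbours at 110955237 to 110961326 and 110970692 to 110975314 had 11.04 and 10.8 in replicate 1, and their counterparts in replicate 2 had 9.82 and 9.86. All of these were above the 8.24 and 8.71 that control-side or boundary peaks reached in the same libraries. The base-weighted means, which include weak gene-side peaks, hardly differed between sides: 7.90 against 8.20 in replicate 1 and 8.20 against 7.42 in replicate 2, a log2 ratio of 0.05 ± 0.141 (SD, n = 2).

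The highest values of H3K27ac and H3K4me1 lay instead in the domain across the boundary or beyond it. In H3K27ac replicate 1 the gene-side peaks had fold enrichments of 3.18, 10.0, 9.06 and 3.21. Replicate 2 had 7 gene-side peaks, from 2.65 to 10.5, and the highest of them, at 110962105 to 110965658, ranked 2 in its list. Among H3K27ac peaks wholly on 1 side, the highest fold enrichments were thus on the gene side, since control-side peaks reached 7.34 and 6.48 at most. The base-weighted mean, which counts the domain on both sides with its single fold enrichment, was higher on the control side in both libraries. Its log2 ratio of gene to control side was −0.16 ± 0.0673 (SD, n = 2, exact sign-flip p = 0.5). For H3K4me1 the ratio was −0.03 ± 0.0844 (SD, n = 3, exact sign-flip p = 0.75), with 2 libraries below 0 and 1 above it.

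H3K4me1 covered more of the control side than of the gene side in each library. Cover was 86.8%, 85.1% and 85.2% of the control side in replicates 1, 2 and 3, and 63.2%, 62.4% and 61.7% of the gene side. The libraries were tightly grouped and the sides did not overlap. The difference was −23.3 ± 0.494 points (SD, n = 3), in the same direction in 3 of 3 libraries, and the exact sign-flip p of 0.25 is the smallest 3 libraries allow. It was −1.53 points over the same 40 kb either side of the boundary and −5.20 with −log10 q of at least 5.

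Cover by the other marks differed less between sides. H3K27ac peaks covered 59.6% and 60.9% of the gene side and 63.8% and 67.6% of the control side. H3K4me2 peaks covered 44.9% and 57.8% of the gene side and 49.5% and 59.2% of the control side. Both differences, −5.43 ± 1.74 and −3.0 ± 2.26 points (SD, n = 2), had an exact sign-flip p of 0.5. They changed sign with the boundary 5 kb higher or with the same 40 kb on either side.

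Nearly all bases under H3K27ac in both libraries also lay under H3K4me1, and a smaller part under H3K4me3. On the gene side they came to 42.4 kb, of which 95.9% lay under H3K4me1, 77.1% under H3K4me2 and 27.5% under H3K4me3 in every library. On the control side they came to 32.9 kb, of which 99.8%, 82.6% and 15.9% did. All 4 marks met over 10.2 kb of the gene side and 5.24 kb of the control side.

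Open chromatin of proerythroblasts formed 12 sites found in both ATAC libraries, 6 on each side. Of the other windows, 8 of 20294 (0.0394%) held as many sites. Replicate 1 had 7 peaks on the gene side and 6 on the control side, and replicate 2 had 8 and 6. Summits of the 2 libraries lay 0 to 66 bp apart at the 12 sites. Replicate 2 alone had peaks at 110958011 to 110958299 and 110973214 to 110973610, with fold enrichments of 3.33 and 2.46.

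The control side held 5 sites spaced over 111007473 to 111026041 and 1 distant site at 111058481 to 111059014. None was matched to a named hypersensitive site of the control region. From low to high coordinate, the fold enrichments of the 5 were 7.02, 8.51, 8.17, 7.91 and 10.9 in replicate 1. In replicate 2 they were 8.29, 7.64, 7.57, 9.32 and 9.66. The distant site, 32.4 kb further on, had 13.0 and 10.1, above 98.6% and 86.0% of the peaks of each list.

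The gene side held 2 groups of sites and 1 solitary site. The first group comprised 110958909 to 110959581, 110959723 to 110960331 and 110962293 to 110962691, with fold enrichments of 3.16, 4.13 and 5.29 in replicate 1 and 3.02, 3.75 and 5.35 in replicate 2. The second comprised a wide site at 110973751 to 110975124 (4.59 and 4.80) and a narrow one at 110976317 to 110976722 (9.71 and 7.85). The wide site was called as 2 peaks in replicate 1 and as 1 in replicate 2. Each group lay under 1 of the 2 gene-side H3K4me3 peaks in both libraries. The solitary site, 110941484 to 110941923, stood at different places in the lists, with 4.08 in replicate 1 (above 13.5% of peaks) and 10.0 in replicate 2 (above 85.6%), and had no H3K4me3 peak.

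H3K4me1 peaks on the gene-side sites were strong at both groups and weaker at the solitary site. At the solitary site they had fold enrichments of 3.85, 2.81 and 3.61 in replicates 1, 2 and 3. At the first group replicate 1 had 1 peak of 5.56, replicate 2 had 4.51 and 4.47, and replicate 3 had 4.55 and 4.47. At the second group the wide site had 5.28, 4.73 and 4.62, and the narrow site had 5.17 and 4.61 in replicates 1 and 3 and lay at the edge of the domain across the boundary in replicate 2. H3K4me2 had 4.42 and 4.72 at the solitary site and 7.11 and 6.58 at the narrow site, below the values at the first group and the wide site given above.

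Sites of the control side had higher fold enrichments than most sites of the gene side. The median fold enrichment was 8.34 on the control side and 4.36 on the gene side in replicate 1, and 8.80 and 5.07 in replicate 2. The ranges overlapped, since the highest gene-side value was 9.71 in replicate 1 and 10.0 in replicate 2, at different sites. The lowest control-side values, also at different sites, were 7.02 and 7.57. Weighted by bases over all ATAC peaks, the mean was 1.88 and 1.78 times higher on the control side, a log2 ratio of gene to control side of −0.87 ± 0.0516 (SD, n = 2). Both libraries had that direction, and the exact sign-flip p was 0.5, the smallest possible. Median −log10 q was also higher on the control side, at 33.7 against 12.3 in replicate 1 and 56.4 against 24.2 in replicate 2. The highest −log10 q was on the gene side, however, at the site that begins at 110976317. It was 52.9 and 68.9 there, against 47.9 and 65.1 at most on the control side. In cover, the sides differed by 0.186 ± 1.40 points (SD, n = 2), with opposite signs in the libraries. The gene-side share of covered bases was 57.8% ± 7.21 for ATAC and 55.2% ± 6.88 for the 9 ChIP libraries, a difference of 2.62 points (two-sided exact permutation p = 0.691). That test likewise shuffled ChIP libraries of different marks as a single group.

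**Figure D4:**
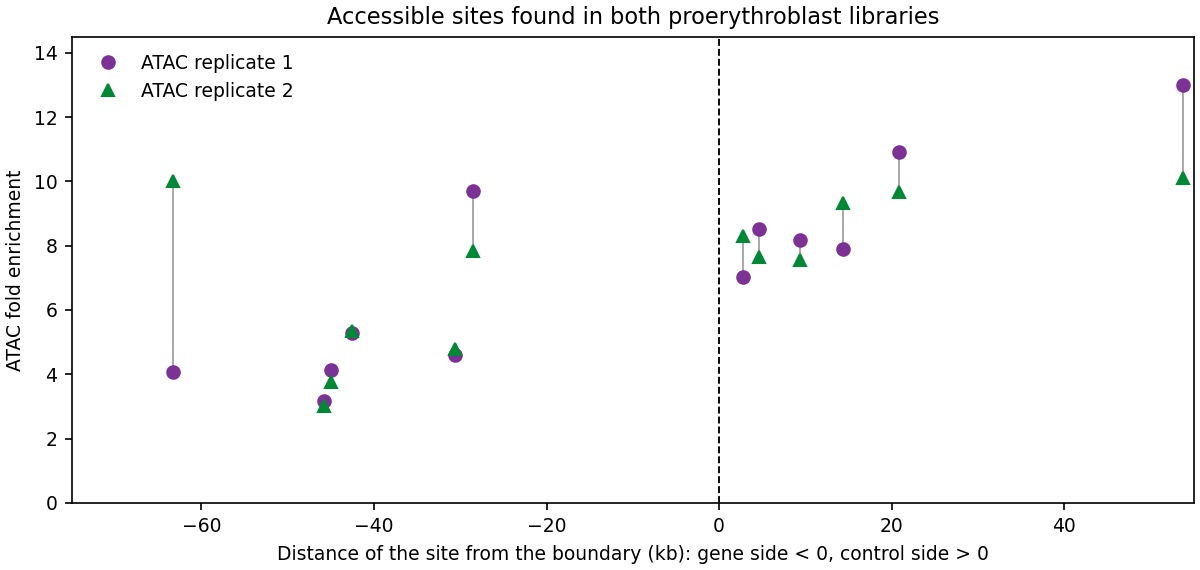
ATAC fold enrichment of the 12 sites found in both libraries, by distance in kb from the boundary; a grey line joins the 2 libraries at a site. All 6 control-side sites lay at or above 7.02 in both libraries, while 4 gene-side sites lay at or below 5.35.

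Peaks of 3 marks met every open site. All 12 sites met H3K27ac (background 74.7% of 16271 sites of the genome), H3K4me1 (68.1%) and H3K4me2 (95.5%) in every library, and 8 met H3K4me3 in both libraries (74.4%). For H3K4me2 and H3K4me3 these shares are near the background. The 8 were 5 of the 6 gene-side sites and 3 of the 6 control-side sites, but with replicate 2 alone they were 5 and 6, so the libraries do not give the same order of sides. The 3 other control-side sites, at 111014208, 111019061 and 111025633, met an H3K4me3 peak of replicate 2 only, with fold enrichments of 4.09, 4.42 and 2.97. At the strong gene-side site that begins at 110976317, the summits at 110976519 and 110976529 lay just outside the H3K4me1 peak of replicate 2, which began at 110976576. At the 11 others, both summits were inside a peak of every H3K4me1 library.

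Between the gene-side groups and the control-side sites lay an acetylated stretch without an ATAC peak. From 110976723 to 111007472, a length of 30.8 kb, neither ATAC library had a peak. H3K27ac peaks covered 93.4% and 97.0% of it, and H3K4me1 peaks 96.7%, 100% and 97.0%. H3K4me3 covered 3.60% and 4.17%, in parts of peaks that reached in from either end. H3K4me2 covered 65.8% in replicate 1, with a mean fold enrichment of 5.61, and 91.3% in replicate 2, with 7.33. In the genes' known order the embryonic members stand between the adult pair and the control region, but none was placed here.

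Another stretch without an ATAC peak, from 111026042 to 111058480 on the control side, was almost as long at 32.4 kb but differed in its marks. H3K27ac covered 38.7% and 45.0% of it and H3K4me2 14.3% and 30.8%, while H3K4me1 covered 77.5%, 74.7% and 74.9%. Past the end of the domain, and before the strong peaks that begin between 111055158 and 111055945, its H3K27ac peaks (5 in each library) and H3K4me2 peaks (5 in replicate 2, 0 in replicate 1) had fold enrichments of 2.36 to 2.90. Its H3K4me1 peaks were also weaker than the domain there. Up to the strong H3K4me1 peaks that begin between 111047850 and 111052528, they had 2.47 to 3.54, against 5.47 to 7.51 in the domain. The stretch between the 2 gene-side groups, 110962692 to 110973750, had H3K27ac over 49.2% and 52.3% and H3K4me3 over 30.9% and 44.5%. It included 4.58 kb, from 110965738 to 110970317, in which no library had a peak, the longest such gap of 11 in the window. Those gaps came to 21.9 kb on the gene side and 3.06 kb on the control side.

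**Figure D5:**
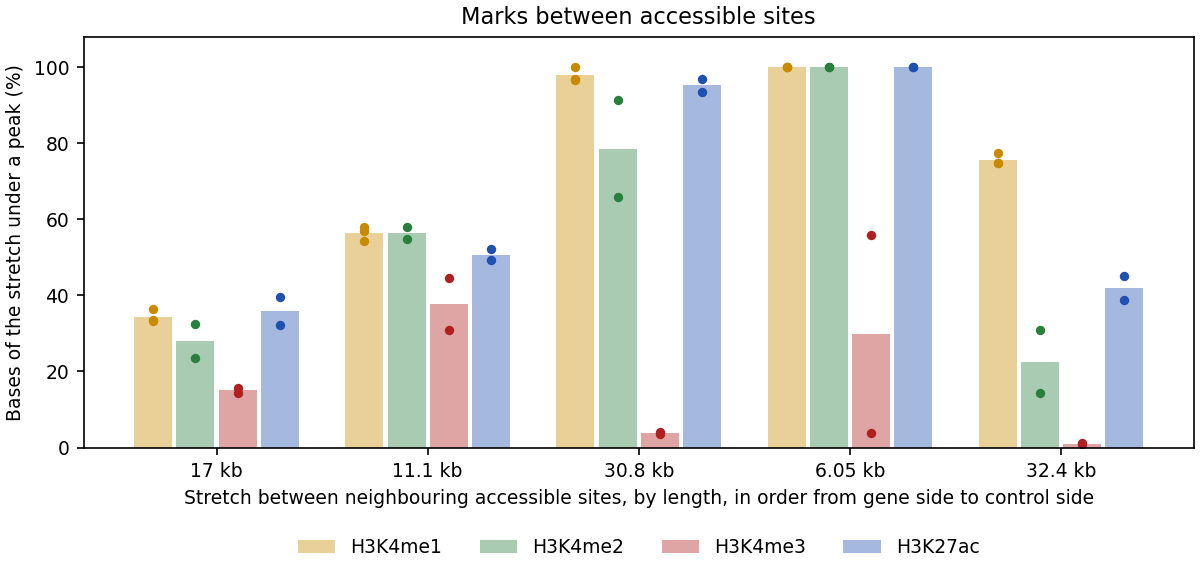
Percentage of each stretch of at least 5 kb between neighbouring ATAC sites that lay under a peak; dots are libraries and bars their means. The 30.8 kb stretch was nearly filled by H3K4me1 and H3K27ac with little H3K4me3, and the 32.4 kb stretch had H3K4me1 but less H3K27ac. Cover takes no account of fold enrichment.

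Around the distant ATAC site H3K4me1, H3K4me2 and H3K27ac had peaks that ran past the end of the window. The H3K4me1 peaks ended between 111068490 and 111068785 and had fold enrichments of 7.56 (rank 4), 5.31 (rank 16) and 5.63 (rank 26). H3K4me2 peaks there had 7.98 and 8.71 and H3K27ac peaks 7.34 and 6.48. The H3K4me3 peaks there had 2.88 in replicate 1, where the peak ended within the window, and 5.00 in replicate 2. Each of these was the last peak of its list in the window. In replicate 1 of H3K4me1 this peak was slightly stronger than the domain across the boundary, at 7.56 against 7.51. In replicate 2 of H3K4me2 it was also stronger, at 8.71 against 7.69. In the other libraries of those marks and in H3K27ac it was weaker.

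For 4 of the 5 groups the Jaccard index between replicates was higher in the window than over the genome. The Jaccard index was 0.877 to 0.895 for the 3 H3K4me1 pairs (0.599 to 0.689 over the genome), 0.862 for H3K27ac (0.652), 0.801 for H3K4me2 (0.781) and 0.662 for ATAC (0.577). For H3K4me3 it was 0.631 in the window and 0.734 over the genome. On the gene side alone H3K4me2 had 0.774 and ATAC 0.575, just below their genome values. On the control side they had 0.836 and 0.803. The index tends to rise with the share of bases covered, which was larger in the window. The values therefore do not by themselves show closer agreement there.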

How the data were processed

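Per the submitters' processing notes, reads were processed with Trimmomatic 0.32, Bowtie 1.0.1, SAMtools and MACS2 on mm9. Not given in the sources used here: settings, MACS2 version, control and any shift of ATAC cut sites. Each library has 1 peak list deposited by the authors, with a fold enrichment, a −log10 p and a −log10 q per peak and a score that is about 10 times the −log10 q. Fold enrichment is the authors' ratio over the caller's background and was compared only within a list. The lists hold no counts, so depth is unknown, and a short list may come from shallow sequencing. The antibody labels and the protocol disagree on the supplier for H3K4me2. The names of H3K4me1 peaks carry the tag Mel where the titles have Me1. It may be a misprint, but MEL is also the name of a mouse erythroleukaemia cell line. The protocol attached to the ATAC samples describes ChIP. ChIP values are from whole liver and ATAC values from proerythroblasts, so assay and cells cannot be told apart, and markers of the cells could not be read from peak lists without annotation.

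Members were all peaks with at least 1 bp in the window, and 7 mitochondrial peaks were set aside. For cover, peaks were clipped to the window and divided at the boundary. In the counts of peaks per side given here, a peak across the boundary was on neither side. Its part on each side entered the cover and mean fold enrichment of that side. An ATAC site was a merged stretch with a peak of both libraries. Fold enrichment per side was weighted by covered bases. Windows were tiled from each chromosome's start. By the rule for named peaks, all ATAC, H3K4me3 and H3K27ac peaks are given, singly or as counts with their range, and for H3K4me1 and H3K4me2 the widest, the strongest and those on ATAC sites. The planned listing of gaps of at least 5 kb found none, and shorter gaps, the stretches between sites and the domain's ends were chosen after values were seen. The members and lists were chosen with earlier results of these data known. Calculations used Python 3.11.15, numpy 2.4.6, pandas 2.3.3, matplotlib 3.10.9 and Biopython 1.88, and interval functions were tested on simulated data. Alternatives were other boundaries, −log10 q of at least 5, equal numbers of peaks, other overlap rules and leaving out each replicate.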

Additional observations from a re-analysis of the deposited data

Results flagged for a closer look

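In 2 comparisons of mean fold enrichment by side, every library of 1 group moved one way and every library of the other the opposite way. The log2 ratio of gene side to control side was 1.35 for H3K4me3 and −0.164 for H3K27ac, a difference of 1.52. It was −0.870 for ATAC, so that H3K4me3 and ATAC differed by 2.23. Neither difference was tested. The H3K27ac ratio includes the domain that lies on both sides with a single fold enrichment, and the ATAC ratio is from other cells than the ChIP ratios.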

How the results depend on the processing

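Among differences between sides, 4 kept their direction in each alternative that could be computed. The log2 ratio of mean fold enrichment, gene side to control side, stayed between 1.15 and 1.42 for H3K4me3, between −0.91 and −0.68 for ATAC and between −0.40 and −0.06 for H3K27ac. The H3K4me1 cover difference stayed between −31.3 and −1.53 points. With −log10 q of at least 5 the H3K4me3 ratio could not be fitted, since replicate 1 then had no control-side peak. Directions that turned are given next, and their cause was not tested beyond what each setting changes by construction.

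With the same 40 kb either side of the boundary, the difference in cover (gene minus control side, percentage points) was 6.26 for H3K4me2, −6.00 for H3K4me3, 10.3 for H3K27ac and −0.724 for ATAC. The log2 ratio was then 0.04 for H3K4me1 and −0.12 for H3K4me2, the gene-side share of H3K4me3 minus other ChIP libraries was −6.28 points, that of ATAC minus ChIP was −4.32, and 2 ATAC sites lay on the gene side. With the boundary 5 kb higher, cover differed by 4.61 points for H3K4me2 and 0.485 for H3K27ac, and the H3K4me1 log2 ratio was 0.02. The share difference for H3K4me3 was 20.0 with the midpoint as boundary, 14.2 with the boundary 5 kb lower and 28.7 with −log10 q of at least 5. Each had an exact permutation p of 0.0278, the smallest possible, against 0.139 in the main setting. These p-values were not adjusted for the number of settings tried. As in the main setting, they mix differences between marks with those between replicates.

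With −log10 q of at least 5, the ATAC cover difference was −0.212 points, the ATAC share difference −6.81, the covered window 61.9% for H3K4me1 and 54.2% for H3K27ac, and the H3K4me1 Jaccard index 0.894. H3K4me3 then had 3 bins with a peak in both libraries, and the windows with at least as much cover were 55 for H3K4me3 and 1 for H3K27ac. With equal numbers of peaks the ATAC cover difference was −0.0782 points. With 10% of each bin required, 1 ATAC bin remained. Windows tiled with a shift gave 13 with at least as much H3K27ac. The Jaccard index on the gene and control side alone was 0.909 and 0.862 for H3K4me1, 0.872 and 0.372 for H3K4me3, and 0.575 and 0.803 for ATAC.

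Leaving out 1 library in turn moved cover differences from −5.58 to 8.34 points for H3K4me3 and −0.806 to 1.18 for ATAC, and log2 ratios from −0.08 to 0.00 for H3K4me1 and −0.05 to 0.15 for H3K4me2. Share differences ran from −1.71 to 18.5 points for H3K4me3 and from −2.48 to 7.72 for ATAC. Windows with at least as much cover ran from 4 to 10 for H3K4me1, 7 to 29 for H3K4me3 and 3 to 10 for H3K27ac, and the H3K4me1 Jaccard index from 0.877 to 0.895. The replicate block, which permuted labels only among libraries of the same number, left the H3K4me3 share difference at 8.38 with an exact permutation p of 0.188. The numbers are not shown to pair libraries, since number 1 carries different date-like tags in different marks. Among the 5 libraries that share a date-like tag with an H3K4me3 library the difference was 5.53 (exact permutation p = 0.667). Unknown depth limits every absence of a peak.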

Other observations

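Short gaps in the broad peaks recurred at the same positions in different marks. Within the first gene-side group, 5 of the 9 ChIP libraries had a gap that included 110961327 to 110962104, and the 4 others had a peak across it. Within the second group, 6 libraries had a gap that included 110975315 to 110976109, and 3 had a peak across it. Each gap lay between neighbouring ATAC sites, next to a narrow site that begins at 110962293 or 110976317, and the stretches shared by all gapped libraries were 778 and 795 bp long. A further gap, at 110986699 to 110987487 in 5 libraries, marked the lower end of the acetylated domain, and 1 library had a peak across it. H3K4me2 replicate 1 and both H3K4me3 libraries also had no peak there, within longer gaps. On the control side, 5 libraries had a gap that included 111034311 to 111035947, away from the ATAC sites, and 0 had a peak across it. These gaps were noticed in the data and not tested, and the handling of reads that match more than 1 globin gene was not tested either.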
